A study of Mus musculus with 12 samples.

Results

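The genes described here are the MHC and antigen presentation genes of cultured neural progenitors, 61 of the 24108 genes listed. They were chosen by name: 44 carry the H2- prefix of the mouse MHC, and 17 are named partners, from B2m and the Tap transporters to the immunoproteasome, the regulators Nlrc5 and Ciita, Cd74 and the chaperones Calr, Canx and Pdia3. By role, 4 are classical class I genes with B2m, 29 are class Ib and related genes, 5 serve peptide transport, trimming and loading, 5 belong to the immunoproteasome and its activator, 11 are class II genes, 2 are regulators, 3 are general chaperones, and 2 carry the prefix without presenting antigen (H2-Ke2 and H2-Ke6).

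RNA-seq was performed on 12 libraries of neural progenitor cells (NPCs) taken from the subventricular zone of P9 to P12 mice, with 3 libraries in each of 4 groups. p53+/+ and p53-/- NPCs were cultured for 48 h either alone on laminin or on a monolayer of primary C57BL/6J mouse brain microvascular endothelial cells (bmvECs), from which they were taken off by selective trypsinization. Per the study's methods, p53 was removed acutely in p53LoxP/LoxP NPCs by an adenovirus carrying iCre under a CMV promoter, and the controls received a virus with the promoter only, so all 4 groups went through infection. The methods describe removal of p53 in the NPCs only, and the bmvECs were purchased. The labels name 1 library per group in each of 3 experiments, 17_9, 25_9 and 1_10, but not the animals behind them, so p-values measure the spread between experiments. Levels are given as CPM, counts per 1000000 counts of the library after TMM scaling, always for experiments 17_9, 25_9 and 1_10 in that order. Trp53 was at 80.3, 96.6 and 109 CPM in p53+/+ NPCs alone and at 11.7, 14.7 and 17.4 in p53-/- NPCs alone.

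Class I molecules show peptides from inside the cell to CD8 T cells. The proteasome cuts proteins into peptides, TAP carries these into the endoplasmic reticulum, and the loading complex fits them to a heavy chain bound to B2m. Interferons raise this set of genes through IRF factors and NLRC5, among others, and exchange the standard catalytic subunits of the proteasome for Psmb8, Psmb9 and Psmb10. Class II molecules show peptides from the endosome, depend on Ciita, and are kept mostly to professional antigen-presenting cells. Neural cells are known for low class I levels at rest.

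The DNA upstream of the genes on which the results turn is shown because the known control elements of this pathway lie there. Of the 61 genes, 43 matched a RefSeq promoter window on GRCm38, from 250 bases before to 50 after the transcription start. The printed stretches are the 200 bases before the start, on the gene's strand, for B2m (chr2:122147487-122147686, plus strand), H2-K1 (chr17:34000348-34000547, minus strand), H2-D1 (chr17:35262894-35263093, plus strand), H2-T23 (chr17:36032702-36032901, minus strand) and Psmb8 (chr17:34197995-34198194, plus strand). Tap1 and Psmb9 run apart from each other, and the 225 bases between their starts are printed on the strand of Tap1 (chr17:34187331-34187555, plus strand). Capitals mark matches, on either strand, to the core bound by IRF factors (AANNGAAA), the interferon gamma element GAS (TTCNNNGAA) or the NF-kappaB element (GGGNNTTCC).
B2m: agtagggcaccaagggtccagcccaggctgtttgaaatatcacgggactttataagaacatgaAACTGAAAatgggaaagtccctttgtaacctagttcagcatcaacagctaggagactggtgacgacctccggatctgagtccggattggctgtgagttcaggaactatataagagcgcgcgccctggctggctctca
H2-K1: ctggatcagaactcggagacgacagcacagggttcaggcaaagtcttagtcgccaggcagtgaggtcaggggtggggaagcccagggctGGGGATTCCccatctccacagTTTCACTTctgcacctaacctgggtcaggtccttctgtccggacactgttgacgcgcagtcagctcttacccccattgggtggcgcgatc
H2-D1: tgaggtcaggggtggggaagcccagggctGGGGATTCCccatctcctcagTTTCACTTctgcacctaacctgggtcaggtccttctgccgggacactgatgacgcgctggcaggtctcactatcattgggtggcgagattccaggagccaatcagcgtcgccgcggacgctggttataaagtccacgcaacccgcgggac
H2-T23: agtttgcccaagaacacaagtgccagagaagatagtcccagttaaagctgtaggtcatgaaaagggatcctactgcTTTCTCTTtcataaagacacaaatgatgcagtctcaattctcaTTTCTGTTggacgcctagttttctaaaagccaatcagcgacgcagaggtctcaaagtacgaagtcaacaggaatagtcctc
Psmb8: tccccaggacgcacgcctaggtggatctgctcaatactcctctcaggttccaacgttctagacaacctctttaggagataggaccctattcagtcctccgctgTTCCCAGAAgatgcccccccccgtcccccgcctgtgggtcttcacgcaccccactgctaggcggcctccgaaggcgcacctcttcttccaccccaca
Tap1 and Psmb9: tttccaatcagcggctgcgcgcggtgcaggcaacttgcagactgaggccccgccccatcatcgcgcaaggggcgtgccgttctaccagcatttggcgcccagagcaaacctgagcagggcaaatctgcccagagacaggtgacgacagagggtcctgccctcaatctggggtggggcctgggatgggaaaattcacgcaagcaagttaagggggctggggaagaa

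H2-K1 and H2-D1 held an NF-kappaB match and then an IRF match, starting 111 and 90 bases before the start in H2-K1 and 171 and 150 bases before it in H2-D1. B2m held 1 IRF match, 137 bases before its start, and H2-T23 held 2, at 124 and 81 bases. Psmb8 held a GAS match 97 bases before its start, and the stretch shared by Tap1 and Psmb9 held no match to these 3 letter patterns. Matches did not track the calls: Calr, called in no comparison, held 2 IRF matches in its window, and H2-Ke6, also not called, held 1. The windows of Psmb10, Psme2 and Tapbp, called higher in both co-cultures, held no match to the 3 patterns. The IRF core was found in the windows of 23 of the 43 genes, against 23.9% of all 32851 promoter windows, and the NF-kappaB pattern in 8, against 5.82%. GAS was found in 4 of 43, against 8.30%, and the CCAAT box in 35, against 37.4%. A gene was counted when any of its windows held a match, while the percentages are of single windows. Windows of the H2 genes resemble each other, so these matches do not come from unrelated sequences. A match is a description of letters and no evidence of binding.

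Of the 61 genes, 46 had at least 1 count and 9 of these had no more than 3 counts over all libraries. The 15 genes without a count included H2-L, H2-Q6, H2-Q7, H2-Q8, H2-Q9 and H2-T9. H2 genes resemble each other, and reads that fit several genes equally may have been left out of the counts. Of 100-base stretches of H2-Q7 transcripts in GENCODE M21, 12% also occurred in another gene, against 3.59% for H2-D1, 3.15% for H2-T23, 0.957% for H2-K1 and 0 for B2m, Tap1, Psmb8 and Psmb9. Psme2 shared 18.4% of its stretches, H2-Ke6 61.6%, H2-Q5 14.0% and H2-T10 7.06%. The low-count filter of edgeR kept 29 of the 61 genes. Of these, 23 were above the filter's level in every library, while H2-Eb1, H2-K2, H2-Q5 and H2-T24 reached it in fewer than 3 of the 6 libraries of NPCs alone and so passed mainly through the co-cultures.

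Calls rest on the quasi-likelihood test of edgeR over all 13745 genes that passed the filter, with Benjamini-Hochberg adjustment and a threshold of 0.05. This fit leaves out the pairing of libraries by experiment. A fit with the experiment as a block takes it in, and its counts are given as well. Errors of log2 fold changes, called SE here, are the absolute log2 fold change divided by the square root of the test's F statistic. They are approximate, with n = 3 against 3, and least reliable for changes near 0. Errors printed beside a p-value with the experiment as a block come from the fit without it. In co-culture the class I pathway rose in both genotypes, from its heavy chains to its proteasome subunits. Of 29 tested genes, 20 were called higher in p53+/+ co-cultures, where 21.2% of all tested genes were, and 18 in p53-/- co-cultures, where 18.8% were. None was called lower in p53+/+ co-cultures, against 18.3% of all genes, whether by edgeR or by DESeq2, nor did any reach an unadjusted p under 0.05 on that side. H2-Ke2 was called lower in p53-/- co-cultures, against 17% of all genes. A fit with the experiment as a block called 21 genes higher in each co-culture, against 26.2% of all genes in p53+/+ and 24.3% in p53-/- NPCs. None and 1 were then called lower, against 24.1% and 23.2%. Among the 23 genes above the filter in every library, 16 were called higher in p53+/+ and 15 in p53-/- co-cultures, with median log2 fold changes of 1.31 and 0.92. The 12223 genes of that kind in all had medians of -0.03 and -0.05, with 19.3% and 17.1% called higher. Both co-culture comparisons called 17 of the genes higher, which is 17 of 20 in p53+/+ and 17 of 18 in p53-/- NPCs. The 17 include H2-K2 and H2-T24, which passed the filter mainly through the co-cultures. Over all tested genes, the 2068 called higher in both were 71.1% of those in p53+/+ and 80.0% of those in p53-/- NPCs. Endothelial markers rose in the co-cultures as well, as described further on, and their part in these values was not tested. In bulk RNA from mixed cells, a change in the share of a cell type and one in RNA per cell cannot be told apart.

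**Figure D1:**
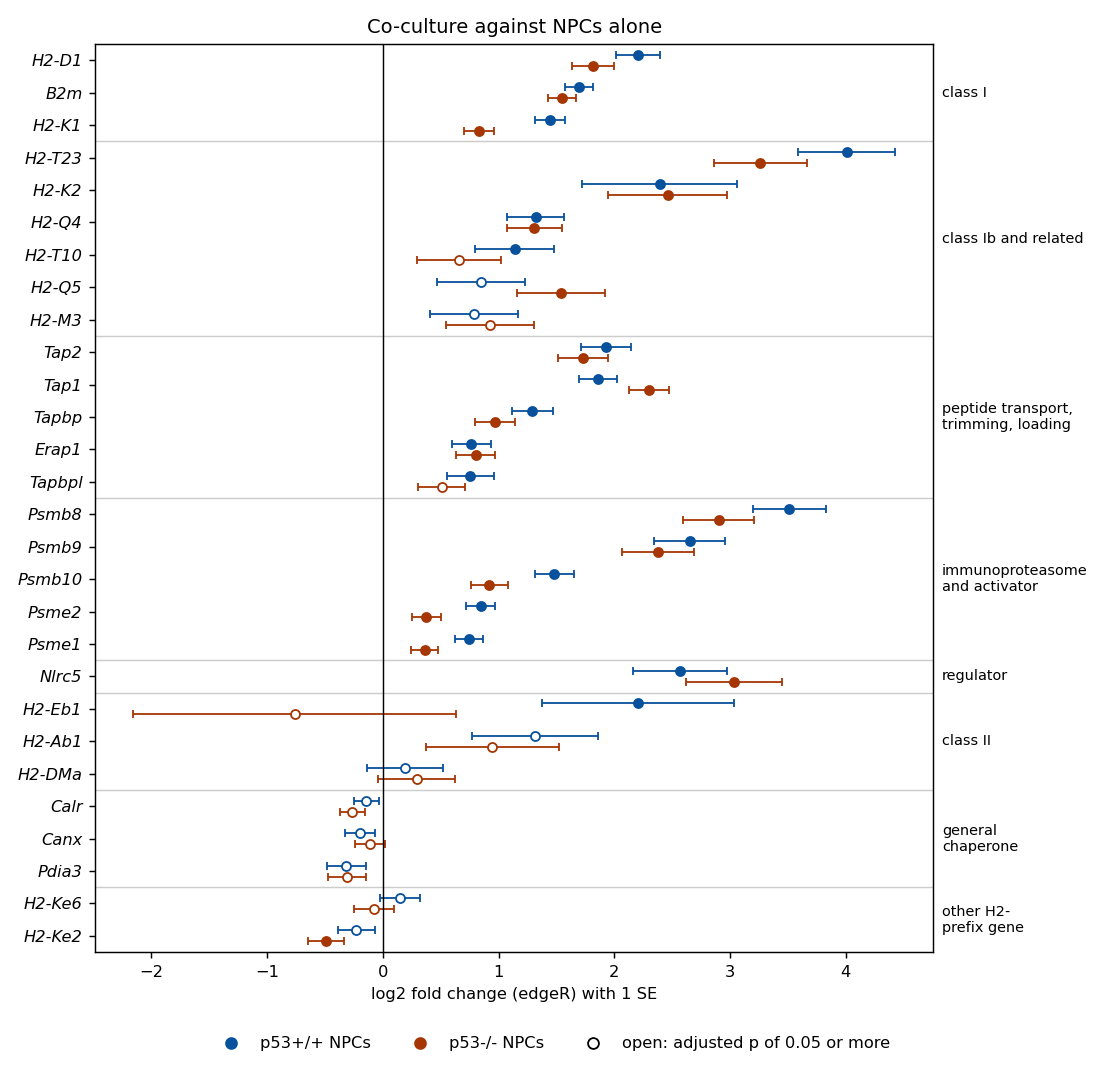
Log2 fold change of co-culture against NPCs alone for 28 tested genes, grouped by role, in p53+/+ (blue) and p53-/- NPCs (red), with bars of 1 SE from edgeR and open circles for genes not called. H2-T24 is left out because it had no count in p53+/+ NPCs alone. The class I genes, transporters, immunoproteasome genes and Nlrc5 lie to the right of 0 in both genotypes, and the general chaperones lie near 0 or to its left.

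The light chain B2m, which every class I molecule needs, was at 78.4, 63.8 and 59.0 CPM in p53+/+ NPCs alone and at 223, 197 and 232 in p53+/+ co-cultures. Without p53 it was at 84.4, 83.4 and 77.8 CPM alone and at 244, 225 and 248 in co-culture. All 6 co-cultures thus lay above all 6 cultures alone, and B2m rose by 1.70 ± 0.12 on the log2 scale in p53+/+ (edgeR adjusted p = 1.14e-06) and by 1.55 ± 0.12 in p53-/- NPCs (adjusted p = 3.41e-06). The heavy chain H2-K1 was at 41.2, 43.1 and 51.4 CPM in p53+/+ NPCs alone and at 131, 127 and 111 in co-culture. The p53-/- NPCs started higher, at 72.9, 67.8 and 62.9 CPM, and reached 135, 123 and 104 in co-culture. The genotypes overlapped in co-culture and did not overlap alone. H2-K1 rose by 1.44 ± 0.13 in p53+/+ (adjusted p = 6.37e-06) and by 0.83 ± 0.13 in p53-/- NPCs (adjusted p = 0.000522).

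H2-D1, the other classical heavy chain, was at 3.94, 4.22 and 4.22 CPM in p53+/+ NPCs alone and at 20.5, 17.6 and 18.9 in co-culture. The p53-/- libraries held 7.32, 5.92 and 6.05 CPM alone and 28.8, 21.3 and 17.8 in co-culture. All co-cultures lay above all cultures alone, and the fold was 4.60 in p53+/+ (log2 2.20 ± 0.19, edgeR adjusted p = 4.20e-06) and 3.52 in p53-/- NPCs (log2 1.81 ± 0.18, adjusted p = 2.16e-05). H2-L, the third classical gene, had no count, and C57BL/6 mice are known to lack it.

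**Figure D2:**
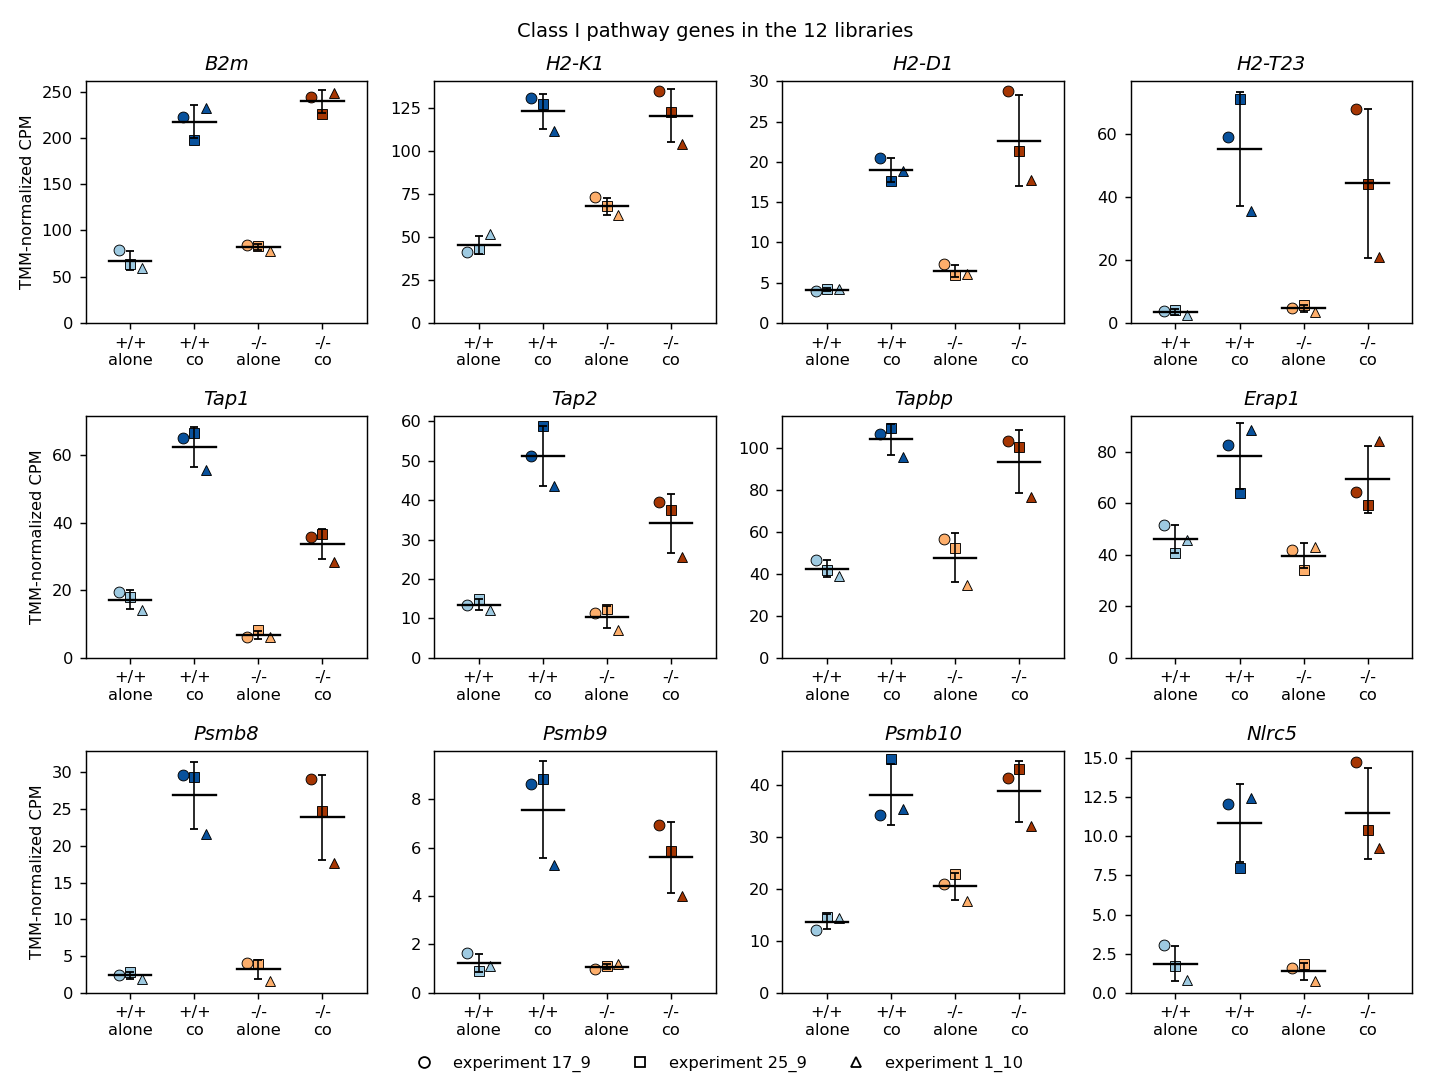
Level of 12 class I pathway genes in each library, as TMM-normalized CPM on linear axes from 0, by genotype (+/+ or -/-) and culture (alone or co), with a symbol per experiment, a line at the mean and a bar of 1 SD (n = 3). For each gene the 3 co-cultures lie above the 3 cultures alone of their genotype, and for Tap1 the p53-/- libraries lie below the p53+/+ libraries of the same culture.

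Among the class Ib genes, H2-T23 rose most of those with counts in every library. It encodes Qa-1, which is recognised by inhibitory receptors of natural killer cells. It was at 3.69, 4.17 and 2.44 CPM in p53+/+ NPCs alone and at 59.0, 71.3 and 35.6 in co-culture, a fold of 16.1 (log2 4.01 ± 0.42, edgeR adjusted p = 1.85e-05). In p53-/- NPCs it was at 4.60, 5.74 and 3.50 CPM alone and at 68.2, 44.1 and 21.0 in co-culture, a fold of 9.58 (log2 3.26 ± 0.40, adjusted p = 9.04e-05). Within each culture experiment 1_10 was the lowest of the 3.

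H2-T24 had no count in the 3 libraries of p53+/+ NPCs alone and 51, 49 and 16 counts in co-culture, so it was at least 36.4-fold higher against a floor of 3 counts over the group. Without p53 it had 1, 3 and 0 counts alone and 46, 30 and 20 in co-culture. It was called higher in both (edgeR adjusted p = 0.000233 and 0.00110). H2-T24 passed the filter mainly through the co-cultures, so these p-values add no support of their own to the rise. H2-Q4, of the Qa-2 region, rose by 1.32 ± 0.24 (adjusted p = 0.00113) and 1.31 ± 0.24 (adjusted p = 0.00147) in the 2 genotypes, from 7.30 to 15.6 CPM alone up to 23.4 to 36.0 CPM in co-culture. The weakly counted H2-K2 had 1 to 6 counts per library alone and 5 to 25 in co-culture, and was called higher in both. It too passed the filter mainly through the co-cultures.

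H2-T10 was called in p53+/+ co-cultures (log2 1.14 ± 0.34, edgeR adjusted p = 0.0191), where its 25 to 51 counts lay above the 12 to 22 counts alone. Its log2 fold change in p53-/- NPCs was 0.66 ± 0.36 (adjusted p = 0.177, and 0.0441 with the experiment as a block). H2-Q5 was called in p53-/- co-cultures (1.54 ± 0.38, adjusted p = 0.00787) and reached 0.85 ± 0.38 in p53+/+ co-cultures (adjusted p = 0.0908). It passed the filter mainly through the co-cultures, so its p-values add no support of their own. H2-M3, which presents formylated peptides, was called in neither co-culture (0.78 ± 0.38 and 0.92 ± 0.38, adjusted p = 0.119 and 0.0755, the latter 0.0466 with the experiment as a block). The other 22 class Ib and related genes were not tested: 9 had 1 to 57 counts in all, and 13 had none.

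The TAP transporter rose with the molecules it supplies. Tap1 was at 19.4, 18.1 and 14.2 CPM in p53+/+ NPCs alone and at 65.2, 66.6 and 55.6 in co-culture (log2 1.86 ± 0.16, edgeR adjusted p = 5.09e-06). The p53-/- NPCs held 6.15, 8.11 and 6.16 CPM alone and 35.9, 36.6 and 28.5 in co-culture (log2 2.30 ± 0.17, adjusted p = 2.42e-06). The 4 groups did not overlap, and p53-/- NPCs were the lower genotype in each culture. Tap2, the other TAP subunit, rose from between 12.2 and 14.9 CPM to between 43.6 and 58.8 CPM in p53+/+ (log2 1.93 ± 0.22, adjusted p = 3.57e-05). Without p53 it rose from between 7.10 and 12.4 CPM to between 25.6 and 39.5 CPM (log2 1.73 ± 0.22, adjusted p = 0.000111).

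Tapbp, or tapasin, which bridges TAP and the empty heavy chain, rose by 1.29 ± 0.18 in p53+/+ and 0.97 ± 0.18 in p53-/- NPCs (edgeR adjusted p = 0.000142 and 0.00131). The trimming enzyme Erap1 rose by 0.76 ± 0.17 and 0.80 ± 0.17 (adjusted p = 0.00317 and 0.00299). The tapasin-related peptide editor Tapbpl rose by 0.76 ± 0.20 in p53+/+ NPCs (adjusted p = 0.00993), and reached 0.51 ± 0.20 in p53-/- NPCs (adjusted p = 0.0644, and 0.0287 with the experiment as a block).

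The immunoproteasome rose steeply and its activator mildly. Psmb8 was at 2.44, 2.78 and 1.83 CPM in p53+/+ NPCs alone and at 29.6, 29.4 and 21.6 in co-culture, a fold of 11.4 (log2 3.51 ± 0.32, edgeR adjusted p = 5.97e-06). Without p53 it was at 3.97, 3.92 and 1.61 CPM alone and at 29.1, 24.8 and 17.7 in co-culture, a fold of 7.47 (log2 2.90 ± 0.31, adjusted p = 2.88e-05). Genotypes overlapped in each culture and cultures did not.

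Psmb9 was at 1.62, 0.894 and 1.12 CPM in p53+/+ NPCs alone and at 8.61, 8.83 and 5.27 in co-culture (log2 2.65 ± 0.31, edgeR adjusted p = 4.35e-05). Levels in p53-/- NPCs were 0.969, 1.09 and 1.17 CPM alone and 6.91, 5.88 and 4.01 in co-culture (log2 2.38 ± 0.31, adjusted p = 0.000134). Psmb9 starts beside Tap1 and reads away from it, and its p53+/+ and p53-/- libraries overlapped in both cultures. Psmb10 rose by 1.48 ± 0.16 and 0.92 ± 0.16 (adjusted p = 3.11e-05 and 0.00107). Psme1 and Psme2, the PA28 cap of the proteasome, rose by 0.74 ± 0.12 and 0.84 ± 0.12 in p53+/+ NPCs (adjusted p = 0.000399 and 0.000246). In p53-/- NPCs they rose by 0.36 ± 0.12 and 0.38 ± 0.12 (adjusted p = 0.0281 and 0.0314).

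The standard catalytic subunits did not follow. Of Psmb5, Psmb6 and Psmb7 and the activators Psme3 and Psme4, none of 5 was called higher in co-culture. Over all tested genes, 21.2% and 18.8% were called higher in p53+/+ and p53-/- co-cultures, and 18.3% and 17% lower. In p53+/+ co-cultures Psme4 was called lower (log2 -0.62 ± 0.17, edgeR adjusted p = 0.0109), and with the experiment as a block Psme3 also was (-0.32 ± 0.14, adjusted p = 0.0895, with the block 0.0223). In p53-/- co-cultures Psmb5, Psmb6, Psmb7 and Psme3 were, by -0.43 to -0.61, and Psme4 was with the block (-0.34 ± 0.17, adjusted p = 0.127, with the block 0.0135). Within libraries, the count of Psmb8 per count of Psmb5 was 0.0281 to 0.0448 in p53+/+ NPCs alone and 0.413 to 0.467 in co-culture. In p53-/- NPCs it was 0.0213 to 0.0522 alone and 0.337 to 0.481 in co-culture. The ratio is not corrected for transcript length, so only its change between libraries is read.

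Nlrc5, the class I transactivator, was at 3.06, 1.69 and 0.814 CPM in p53+/+ NPCs alone and at 12.1, 7.96 and 12.5 in co-culture (log2 2.57 ± 0.41, edgeR adjusted p = 0.000396). The p53-/- NPCs had 1.55, 1.82 and 0.777 CPM alone and 14.8, 10.4 and 9.27 in co-culture (log2 3.03 ± 0.41, adjusted p = 0.000193). Every co-culture was at least 7.96 CPM and no culture alone was above 3.06.

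The general chaperones of the endoplasmic reticulum, which also serve other glycoproteins, were not called in any comparison. Calr was at 949, 891 and 916 CPM in p53+/+ NPCs alone and at 820, 854 and 820 in co-culture (log2 -0.14 ± 0.11, edgeR adjusted p = 0.308). Its log2 fold change in p53-/- NPCs was -0.26 ± 0.11 (adjusted p = 0.0716). For Canx it was -0.20 ± 0.13 and -0.11 ± 0.13, and for Pdia3, or ERp57, -0.32 ± 0.17 and -0.31 ± 0.17. Of 9 chaperones, peptidases and other partners listed beside them, 3 were called lower in p53+/+ co-cultures, where 18.3% of all genes were. These were Hspa5, Hsp90b1 and Pdia6, by -0.45 to -0.51. None of the 9 was called higher there. In p53-/- co-cultures Pdia6 was called lower (-0.57 ± 0.11, adjusted p = 0.00232) and the aminopeptidase Lnpep higher (0.88 ± 0.31, adjusted p = 0.0387), against 17% and 18.8% of all genes.

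Apart from H2-Ab1 and H2-DMa, which were above the filter's level in every library, class II genes were near the floor. The p53+/+ co-culture of experiment 17_9 stood apart from the other libraries. Cd74, the invariant chain, had 112 counts in the p53+/+ co-culture of experiment 17_9, none in the other two p53+/+ co-cultures, and at most 14 in any other library. H2-Aa had 93 counts in that library, none in the other two p53+/+ co-cultures, and at most 6 elsewhere. H2-Ab1 had 105 counts there against 41 and 28 in its group and 10 to 51 elsewhere, and Ciita had 19 against 1 to 10 in all others. This library also held 7 counts of H2-Ob, 7 of H2-DMb1, 5 of H2-DMb2 and 3 of H2-Eb2.

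Markers of antigen-presenting cells were low in that library, though some were at their highest there. It held 9 counts of Ptprc, the pan-leukocyte marker, against 0 to 3 in the others, 12 of the B cell gene Cd79a against 0 to 10, and 1 of the microglial gene Aif1. The summed level of 7 dendritic and B cell markers was 3.60, 2.64 and 3.11 CPM in p53+/+ co-cultures and 2.75 to 3.38 CPM in p53+/+ NPCs alone. The sum of 12 microglial and macrophage markers was 11.8, 11.4 and 8.80 CPM in p53+/+ co-cultures, against 3.87 to 4.52 CPM alone. In p53-/- NPCs that sum was 11.8 to 16.1 CPM in co-culture and 3.22 to 10.4 CPM alone. The part of such cells in the class II counts was not tested.

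H2-Eb1, which passed the filter mainly through the co-cultures, was called higher in p53+/+ co-cultures. Its counts were 74, 20 and 4 there against 10, 6 and 4 alone (log2 2.20 ± 0.83, edgeR adjusted p = 0.0496). Without the library with 74 counts the value was 0.65 ± 0.70 (adjusted p = 0.524). H2-Ab1 reached 1.31 ± 0.54 in p53+/+ co-cultures (adjusted p = 0.0709, and 0.0477 with the experiment as a block). H2-DMa, which exchanges class II peptides, was at 1.83 to 6.42 CPM over the 12 libraries, overlapped between all groups and was not called in any comparison.

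**Figure D3:**
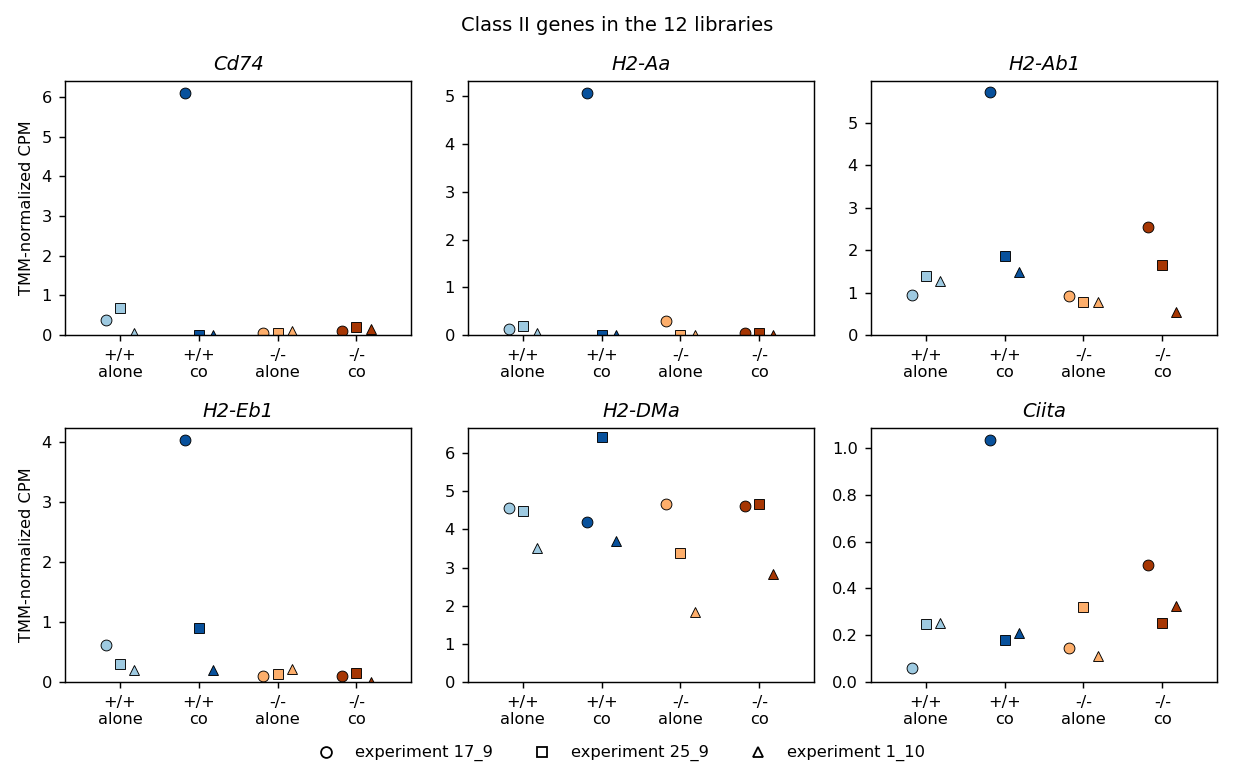
Level of 5 class II genes and their regulator Ciita in each library, as TMM-normalized CPM on linear axes from 0, by genotype and culture, with a symbol per experiment. The p53+/+ co-culture of experiment 17_9 stands above every other library for each gene but H2-DMa.

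Between p53-/- and p53+/+ NPCs the shares of these genes called were near those of all genes in the fit without the block. Tap1 was called in both cultures. Of 29 tested genes, 1 was called higher in p53-/- NPCs alone, against 2.02% of all genes, and 1 lower, against 4.27%. In co-culture none was called higher, against 3.24% of all genes, and 2 were called lower, against 4.93%. DESeq2 also called none higher in co-culture, and 1 gene was higher there at an unadjusted p under 0.05 in edgeR and none in DESeq2. With the experiment as a block, 5 of the 29 genes were called higher alone, a larger share than the 7.25% of all genes. They were H2-K1, H2-D1, Psmb10, Psme1 and Psme2. With the block 1 gene was called lower alone, against 9.33% of all genes. In co-culture 1 was higher and 4 were lower with the block, against 9.99% and 10.9%.

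Tap1 was lower by -1.34 ± 0.17 in p53-/- NPCs alone (edgeR adjusted p = 0.000493). On the bmvEC monolayer the value was -0.89 ± 0.16 (adjusted p = 0.00596). It was 2.52-fold lower alone and 1.86-fold lower in co-culture, in 3 of 3 experiments each. The call alone held in all 15 fits without a library or an experiment, and the call in co-culture in 14 of them. Tap2 had the same sign, at -0.39 ± 0.22 alone and -0.58 ± 0.21 in co-culture, and was called in neither (adjusted p = 0.304 and 0.104, the latter 0.00526 with the experiment as a block). Per count of Tap2, the counts of Tap1 were 1.17 to 1.46 in p53+/+ and 0.543 to 0.867 in p53-/- NPCs alone, and 1.13 to 1.27 against 0.907 to 1.11 in co-culture. The genotypes did not overlap in either culture. The p53 consensus, taken as an exact match to 1 of its repeated sites, was found in the windows of 3 of 43 genes, against 8.36% of all single windows. Of the 20 tested genes with a window, only Erap1 held a match, 79 bases before its start. The window of Tap1 held none. Sites with mismatches or outside the windows were not searched, and control of Tap1 by p53 was not tested.

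H2-K1 was higher in p53-/- NPCs alone by 0.58 ± 0.13 (edgeR adjusted p = 0.0189), and 9 of the 15 fits without a library or an experiment kept the call. In co-culture its difference was -0.03 ± 0.13 (adjusted p = 0.911). H2-D1 and Psmb10 had the same sign alone, at 0.64 ± 0.19 (adjusted p = 0.0661) and 0.59 ± 0.16 (adjusted p = 0.0520). With the experiment as a block both were called (adjusted p = 0.0251 and 0.0108), as were Psme1 and Psme2 (adjusted p = 0.0453 and 0.0337).

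H2-Eb1, which passed the filter mainly through the co-cultures, was called lower in p53-/- co-cultures. Its counts there were 2, 3 and 0 against 74, 20 and 4 (edgeR adjusted p = 0.0248). Without the library with 74 counts the log2 value was -2.67 ± 0.86 (adjusted p = 0.137). H2-T10 was at -0.87 ± 0.34 in p53-/- co-cultures (adjusted p = 0.127, and 0.0163 with the experiment as a block). H2-K2 was at 1.20 ± 0.45 (adjusted p = 0.119, and 0.0305 with the block).

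**Figure D4:**
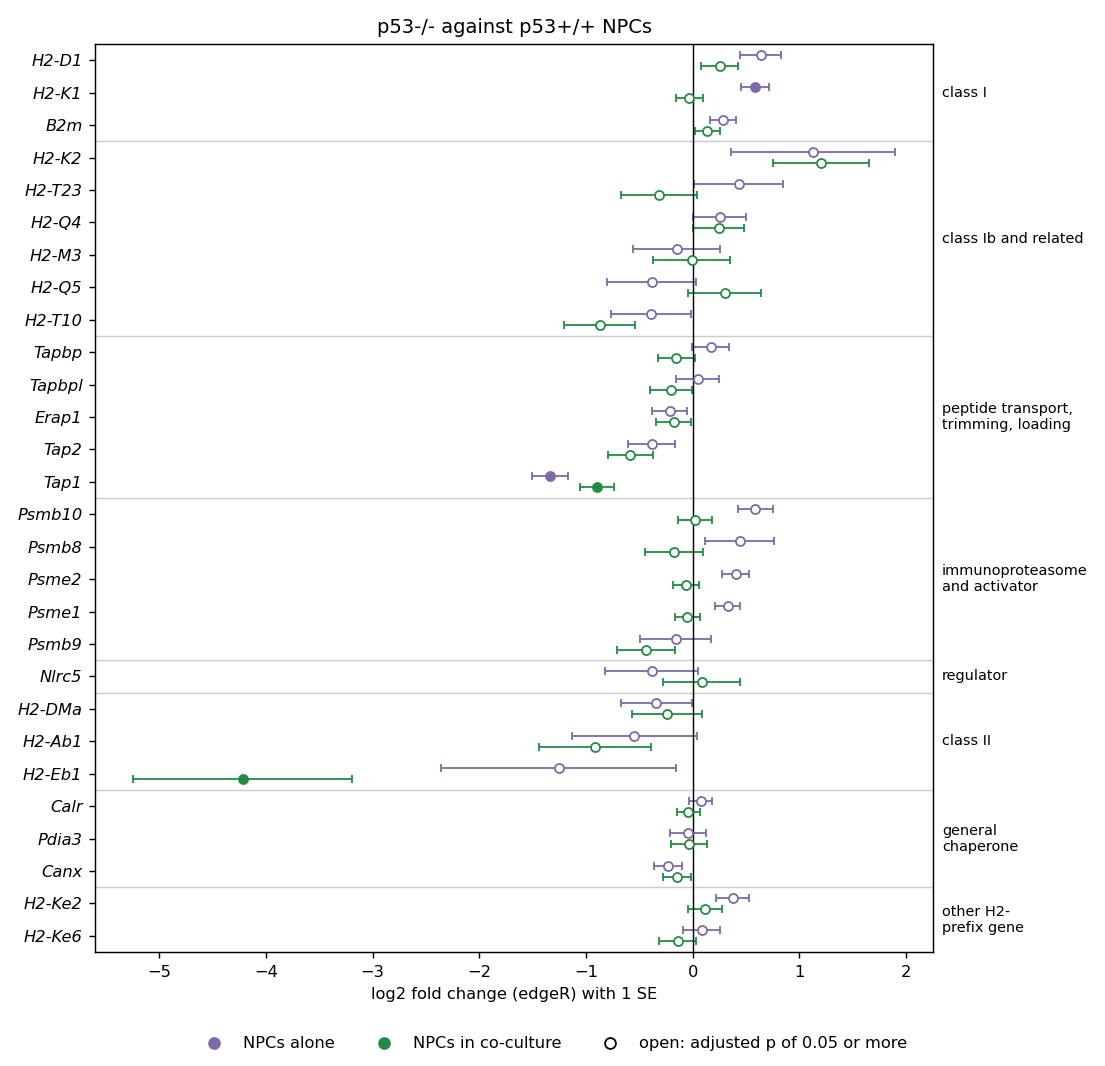
Log2 fold change of p53-/- against p53+/+ NPCs for 28 tested genes, grouped by role, alone (purple) and in co-culture (green), with bars of 1 SE from edgeR and open circles for genes not called. Tap1 is filled in both cultures at -1.34 and -0.89, and H2-Eb1 has the widest bar.

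Whether the co-culture rise differed in size between p53-/- and p53+/+ NPCs was tested by the interaction. Removal of p53 was described for the NPCs only, and endothelial markers rose in both co-cultures. The part of bmvEC RNA in the differences between genotypes in co-culture was not tested. None of 29 genes was called by edgeR or by DESeq2, and 0.0364% of all genes were. At an unadjusted p under 0.05, 4 genes had a smaller rise in p53-/- NPCs and none a larger one, against negative differences in 2.96% and positive ones in 4.14% of all genes. They were H2-K1 (-0.61 ± 0.18), Psmb10 (-0.56 ± 0.23), Psme2 (-0.47 ± 0.18) and Psme1 (-0.38 ± 0.17), with edgeR adjusted p from 0.666 to 0.700. For Tap1 the difference was 0.44 ± 0.23 (adjusted p = 0.730).

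Endothelial markers moved with the co-culture. The summed level of 16 such markers was 33.5, 25.2 and 19.2 CPM in p53+/+ NPCs alone and 202, 164 and 121 in co-culture. In p53-/- NPCs it was 22.2, 21.5 and 15.4 CPM alone and 137, 118 and 110 in co-culture. Of the 16 markers, 15 were called higher in each co-culture, against 21.2% and 18.8% of all genes, and none was at 0 there. The other, the transporter gene Slco1a4, was called lower in p53+/+ co-cultures (log2 -1.98 ± 0.70, edgeR adjusted p = 0.0382), from 17.6, 6.85 and 3.20 CPM alone to 2.72, 2.18 and 2.05 CPM. Its log2 fold change in p53-/- NPCs was -1.61 ± 0.75 (adjusted p = 0.110, with the experiment as a block 0.0405). Without it, a sum chosen after its values were seen, the markers came to 15.9 to 18.3 CPM alone and 119 to 199 CPM in co-culture in p53+/+ NPCs, and to 14.5 to 19.4 and 109 to 136 CPM in p53-/- NPCs. Cdh5, or VE-cadherin, had 0, 2 and 0 counts in p53+/+ NPCs alone and 683, 623 and 380 in co-culture.

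The pathway genes did not share one order over experiments. H2-K1, Tap1, H2-T23, Psmb8 and Psmb9 were lowest in experiment 1_10 in both co-cultures, as the endothelial sum was. B2m was highest there in both, at 232 and 248 CPM, as was Erap1, at 88.2 and 84.0 CPM. Of 9 mural and fibroblast markers, 3 of 5 tested were called higher in p53+/+ and 2 in p53-/- co-cultures, against 21.2% and 18.8% of all genes. The sum of the 9 was 47.1 to 49.1 CPM and 47.8 to 80.1 CPM there, against 20.9 to 25 and 21.2 to 44.8 CPM alone. The 12 neural progenitor markers summed to 20853 to 29016 CPM in p53+/+ and 15875 to 18883 CPM in p53-/- co-cultures. Alone they summed to 12537 to 15298 and 10824 to 12744 CPM. They went both ways: 2 were called higher and 3 lower in each co-culture. Of all genes, 21.2% and 18.8% were called higher and 18.3% and 17% lower. The part of endothelial and mural RNA in the rise of the pathway was not tested.

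**Figure D5:**
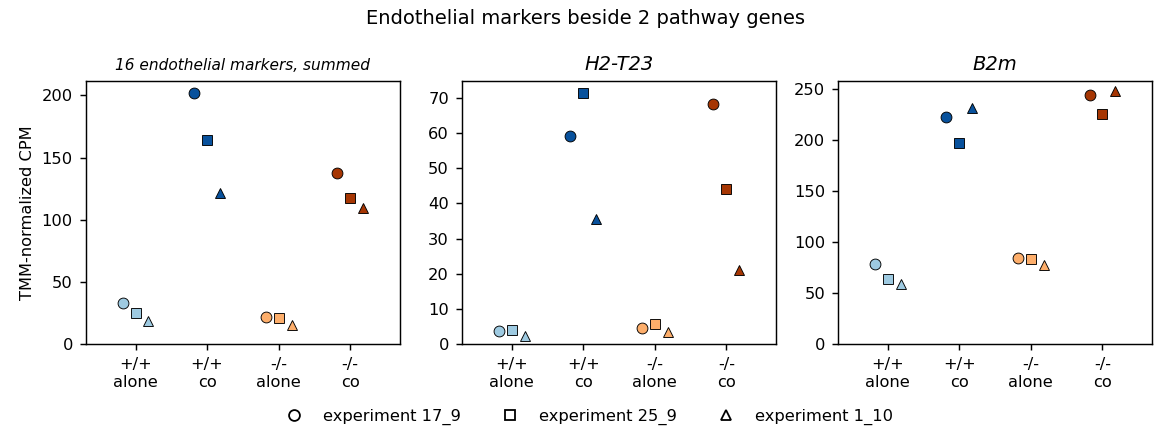
Summed level of 16 endothelial markers, and levels of H2-T23 and B2m in each library, as TMM-normalized CPM on linear axes from 0, by genotype and culture, with a symbol per experiment. In both co-cultures the endothelial sum and H2-T23 are lowest in experiment 1_10, and B2m is highest there.

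Of 15 transcription factors of MHC genes, 3 were called higher in each co-culture, and they were the same 3: Stat2, Irf7 and Irf9. These 3 of 15 are near the share of all tested genes called higher, 21.2% and 18.8%. Lower were Creb1, Nfyb and Nfyc in p53+/+ co-cultures (log2 -0.43 to -0.67), and Nfyc and Rfxap in p53-/- co-cultures (-0.44 ± 0.11 and -0.52 ± 0.16, edgeR adjusted p = 0.00936 and 0.0213). Stat2 and Irf9 are parts of the factor that type I interferons switch on. Stat2 was at 12.4, 19.1 and 21.4 CPM in p53+/+ NPCs alone and at 81.5, 76.8 and 77.0 CPM in co-culture, with no overlap (log2 2.15 ± 0.23, edgeR adjusted p = 1.94e-05). Irf7 rose by 5.44 ± 0.35 in p53+/+ and 3.83 ± 0.31 in p53-/- NPCs, and Irf9 by 2.85 ± 0.21 and 1.97 ± 0.20. Irf1, which responds to interferon gamma, was not called (0.25 ± 0.17 and 0.23 ± 0.16), nor were Irf2, Irf8, Rfx5 and Rfxank. Irf7 and Irf9 were higher in p53-/- NPCs alone, by 1.58 ± 0.38 and 0.83 ± 0.20 (adjusted p = 0.0280 and 0.0289). With the experiment as a block Stat2 was called there as well (0.61 ± 0.22, adjusted p = 0.118, with the block 0.0485).

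Interferons themselves were scarcely counted. Ifna1, Ifna2, Ifna4, Ifng, Ifnl2 and Ifnl3 had no count in any of the 12 libraries, and Ifnb1 had 1 count in each of 2 p53-/- co-cultures. By counting error alone, no count allows at most 3 counts over all libraries for each gene. That bound does not cover reads left out because they fit several genes. Of the 4 receptor chains tested, none was called higher in co-culture, against 21.2% of all genes in p53+/+ and 18.8% in p53-/- NPCs. Ifnar2 was called lower in p53-/- co-cultures (-0.36 ± 0.13, edgeR adjusted p = 0.0389), where 17% of all genes were.

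Of 7 endosomal processing genes, which cut antigens and the invariant chain in professional cells and serve lysosomal breakdown in others, 6 were tested and 5 were called higher in each co-culture: Ctsb, Ctsd, Ctsh, Ctsl and Lgmn. Over all tested genes, 21.2% were called higher in p53+/+ and 18.8% in p53-/- co-cultures. Ctsb rose by 1.70 ± 0.24 in p53+/+ and 1.59 ± 0.24 in p53-/- NPCs (edgeR adjusted p = 0.000162 and 0.000372). With p53 lost, Ctsd differed by -0.76 ± 0.17 and Ctsh by -0.90 ± 0.18 in NPCs alone (adjusted p = 0.0177 and 0.0103), and by -0.87 ± 0.17 and -0.96 ± 0.18 in co-culture (adjusted p = 0.00846 and 0.00687). With the experiment as a block Ctsb was called lower as well, at -0.42 ± 0.23 alone and -0.54 ± 0.23 in co-culture (adjusted p with the block 0.0104 and 0.00189), as was Lgmn in co-culture at -0.39 ± 0.18 (adjusted p = 0.189, with the block 0.0221).

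MHC-like genes outside the H2 region split into 2 directions. Of 9 tested of 14, the genes Fcgrt, Hfe, Mr1 and Procr were called higher in both co-cultures, against 21.2% and 18.8% of all genes. The endothelial protein C receptor Procr rose by 4.50 ± 0.39 in p53+/+ NPCs and by 3.45 ± 0.37 in p53-/- NPCs, and Fcgrt, the neonatal Fc receptor, by 2.02 ± 0.27 and 2.39 ± 0.28. The NKG2D ligand genes Raet1a, Raet1d, Raet1e and H60b were called lower in p53+/+ co-cultures (log2 -0.94 to -1.66), where 18.3% of all genes were. Of these, H60b was called lower in p53-/- co-cultures, where 17% of all genes were. Near-identical Raet1 genes can share reads. H60b fell from 414 to 490 counts to 253 to 266 counts per library in p53+/+ NPCs (edgeR adjusted p = 0.000733). In p53-/- NPCs alone Fcgrt was lower by -1.05 ± 0.28 and Mr1, which presents vitamin metabolites, by -0.88 ± 0.21 (adjusted p = 0.0446 and 0.0291), and Hfe was lower in p53-/- co-cultures by -0.76 ± 0.17 (adjusted p = 0.0164). With the experiment as a block Hfe was called lower alone too (-0.57 ± 0.18, adjusted p = 0.0768, with the block 0.0243) and Fcgrt in co-culture (-0.68 ± 0.26, adjusted p = 0.119, with the block 0.00740).

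Of 9 co-signals, 6 were tested. Cd274, or PD-L1, rose by 2.32 ± 0.40 in p53+/+ and 1.83 ± 0.37 in p53-/- co-cultures (edgeR adjusted p = 0.000756 and 0.00268), and Icosl by 1.67 ± 0.38 and 1.78 ± 0.36 (adjusted p = 0.00430 and 0.00253). The adhesion molecule Icam1 was at 7.0, 5.91 and 6.51 CPM in p53+/+ and at 1.5, 1.41 and 1.17 CPM in p53-/- NPCs alone. It was lower in p53-/- NPCs by -2.24 ± 0.31 alone and by -1.95 ± 0.29 in co-culture (adjusted p = 0.000843 and 0.00208), with no overlap of genotypes in either culture. In p53+/+ co-cultures against NPCs alone its log2 fold change, 0.64 ± 0.27, passed only with the experiment as a block (adjusted p = 0.0786, with the block 0.0190). In p53-/- co-cultures it was called higher, by 0.93 ± 0.31 (adjusted p = 0.0336). Cd80, a ligand of CD28, was also lower, by -4.02 ± 0.83 and -3.89 ± 0.93 (adjusted p = 0.0126 and 0.0228), on at most 2 counts in any p53-/- library.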

How the data were processed

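RNA-seq reads were aligned by the authors to mm9 with TopHat2 2.0.11 and counted per gene with HTSeq 0.6.1, and the deposited values are these raw counts. No source used here states the strand setting or the annotation version, so overlapping and antisense genes are uncertain. Library totals were 16509710 to 22245224 counts. Intervals and floors cover counting error only.

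The members and lists were chosen with earlier results of these data known. Counts were filtered with filterByExpr and scaled by TMM, and a quasi-likelihood model of the 4 groups was fitted to all 12 libraries in edgeR 4.0.16 (R 4.3.3). P-values of 5 comparisons were adjusted by Benjamini-Hochberg at 0.05. All members are accounted for, with every library given for some chosen by role, and other pathway lists are shown by called genes, up to 4 of largest change. Further genes were named after their values were seen. In the list of transcription factors, 1 gene is not reported here. The experiment numbers pair the samples, as the study's supplementary key says: deviations from group means correlated in all 18 same-numbered pairs (r from 0.132 to 0.604), against -0.587 to 0.235 in 36 others. The main fit did not use this pairing, because the study's methods name DESeq2 without a design. Libraries of a group differed by 13.2 to 62.5 times counting variance, so none was a copy. The fits were tested on simulated data. Alternatives were DESeq2 1.42.0, its size factors, library size alone, no filter, only the groups compared, the block, and fits without each library or experiment. In the file, 27 symbols had become dates, none of them among these genes. Coordinates are given only for RefSeq promoter sequences on GRCm38, since the files are on mm9. Figures were drawn with matplotlib 3.10.9.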

Additional observations from a re-analysis of the deposited data

How the results depend on the processing

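Direction was kept in all 43 called gene results under each of 22 alternatives that gave a value, and 31 of the 43 also kept their call under each. With the experiment as a replicate block, 21 genes were called higher in each co-culture (26.2% and 24.3% of all genes) and none and 1 lower (24.1% and 23.2%), 5 higher and 1 lower for p53 loss alone (7.25% and 9.33%), 1 higher and 4 lower for p53 loss in co-culture (9.99% and 10.9%), and none for the interaction. DESeq2 called 2 lower in p53-/- co-cultures and 4 higher for p53 loss alone. DESeq2 with the block called 2 lower in p53-/- co-cultures, and 5 higher and 2 lower for p53 loss alone. With only the groups compared, none was lower in p53-/- co-cultures, none was higher for p53 loss alone and 1 was lower for p53 loss in co-culture. Scaling by library size alone called 0 lower in p53-/- co-cultures. Without any 1 experiment, 0 were lower in p53-/- co-cultures. Without experiment 17_9 or 25_9, 0 were higher for p53 loss alone, and 1 and 0 were lower for p53 loss in co-culture. Without experiment 25_9, 16 and 14 genes were higher in p53+/+ and p53-/- co-cultures. Leaving out single libraries gave 17 to 21 higher in p53+/+ and 16 to 19 higher in p53-/- co-cultures, 0 to 1 lower in p53-/- co-cultures, 0 to 2 higher for p53 loss alone, and 1 to 2 lower for p53 loss in co-culture. The cause of these differences was not tested, other than that fits without an experiment hold fewer samples. Calls on H2-Eb1, H2-K2, H2-T10 and H2-Q5 rest on few counts, and H2-Ke2, Psme1 and Psme2 in p53-/- co-cultures lay near the threshold.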
